A study of Mus musculus with 14 samples.

Results

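The comparison set lineage-negative mammary cells with high GFP (GFPhi) against lineage-negative cells with low GFP (GFPlo), both sorted from the mammary glands of virgin L2G85 mice, a luciferase and GFP transgenic line on the FVB/N strain. These are 2 of the 14 arrays of the series, 1 array for each population, so their difference carries no test and is given as values and counts. The labels call GFPhi enriched and GFPlo depleted for mammary stem cells, and do not give the ages of the mice, their number or whether glands were pooled. The other 12 arrays, 2 for each of P4, P5 and P6 from virgin and from pregnant wild-type FVB/N-J mice, served as a yardstick. P4 (labelled CD24+CD29hi) is called stem-cell-enriched, P5 (given the same gate in its label) luminal-progenitor-enriched, and P6 (CD24lo) differentiated. On every array the sorted cells were labelled with Cy5 and a universal reference, pooled from 11 mouse cell lines, with Cy3. Each level below is therefore log2 of sorted cells over reference, and each difference is GFPhi minus GFPlo on that log2 scale. The GFP arrays shared 1 slide and were scanned with the first replicates of the virgin wild-type groups. Their median Cy5 signals, 71.1 in GFPhi and 70.9 in GFPlo, were below those of the other arrays (75.3 to 196), and 69.0% of probes in GFPhi and 66.4% in GFPlo were well above background, against 69.5% to 86.7% elsewhere.

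The mammary epithelium has an inner luminal layer, which senses hormones and makes milk, and an outer basal layer of contractile myoepithelial cells, which rests on a basement membrane and also holds the cells that can regrow a gland when transplanted. Around it lie fibroblasts, adipocytes and their precursors, vessels and immune cells. Depletion of lineage-positive cells commonly removes blood and endothelial cells and leaves the rest together. In the L2G85 line the transgene is driven by a broadly active promoter derived from chicken beta-actin. Whether its activity differs between these layers was not tested.

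5 genes mark the ends of the comparison. Col17a1 encodes a collagen of the hemidesmosome and Cnn1 the actin-binding protein calponin, both of the basal layer. Gria1 encodes a glutamate receptor subunit, Hsd11b1 an enzyme that regenerates active glucocorticoid, and Enpp2 autotaxin, a secreted enzyme that makes lysophosphatidic acid. Their values rest on the probes below, which are shown because each level is that of 1 oligonucleotide, written 5′ to 3′ with the mm7 position that the scanner files give. Col17a1 had 1 further probe, which differed by 3.49. Averaged with further probes that were not well above background on either GFP array, the difference was -2.46 for Gria1 and -2.50 for Enpp2, in place of -4.72 and -4.67.
Col17a1, chr19:47546901-47546960, minus strand: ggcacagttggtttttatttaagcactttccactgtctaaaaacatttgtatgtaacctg
Cnn1, chr9:21988172-21988231, plus strand: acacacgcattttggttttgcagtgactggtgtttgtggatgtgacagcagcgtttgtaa
Gria1, chr11:57411500-57411559, plus strand: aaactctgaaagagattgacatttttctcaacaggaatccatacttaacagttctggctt
Hsd11b1, chr1:192774594-192774653, minus strand: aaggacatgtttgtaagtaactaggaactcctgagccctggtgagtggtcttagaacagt
Enpp2, chr15:54899174-54899231, minus strand: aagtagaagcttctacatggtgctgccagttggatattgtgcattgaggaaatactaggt

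Col17a1 stood at 8.10 in GFPhi and 3.10 in GFPlo, a difference of 5.01 or 32.2-fold, which was 3.93 with the scanner's own ratio. In the wild-type virgin arrays it read 7.45 and 6.95 in P4, 1.98 and 1.11 in P5, and 2.41 and 1.36 in P6. GFPhi thus lay above both P4 arrays, and GFPlo above all P5 and P6 arrays. Cnn1 was at 7.31 in GFPhi and 2.39 in GFPlo, a difference of 4.92, beside 7.47 and 6.93 in P4 and 2.56 and 2.12 in P6. GFPhi lay between the P4 arrays and GFPlo between the P6 arrays. At the other end, Gria1 was at -0.12 in GFPhi and 4.60 in GFPlo, a difference of -4.72, with P4 at -0.83 and -1.01 and P6 at 3.60 and 2.81. Hsd11b1 was at 1.66 in GFPhi and 6.36 in GFPlo (-4.70), with P4 at 0.05 and -0.46 and P6 at 4.87 and 5.04. For both genes GFPlo exceeded the virgin P6 arrays, and GFPhi exceeded the virgin P4 arrays. Enpp2 was at -0.83 in GFPhi and 3.84 in GFPlo, a difference of -4.67, while P4 read -0.85 and -0.31, P5 -2.52 and -2.79, and P6 1.20 and 1.45.

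**Figure D1:**
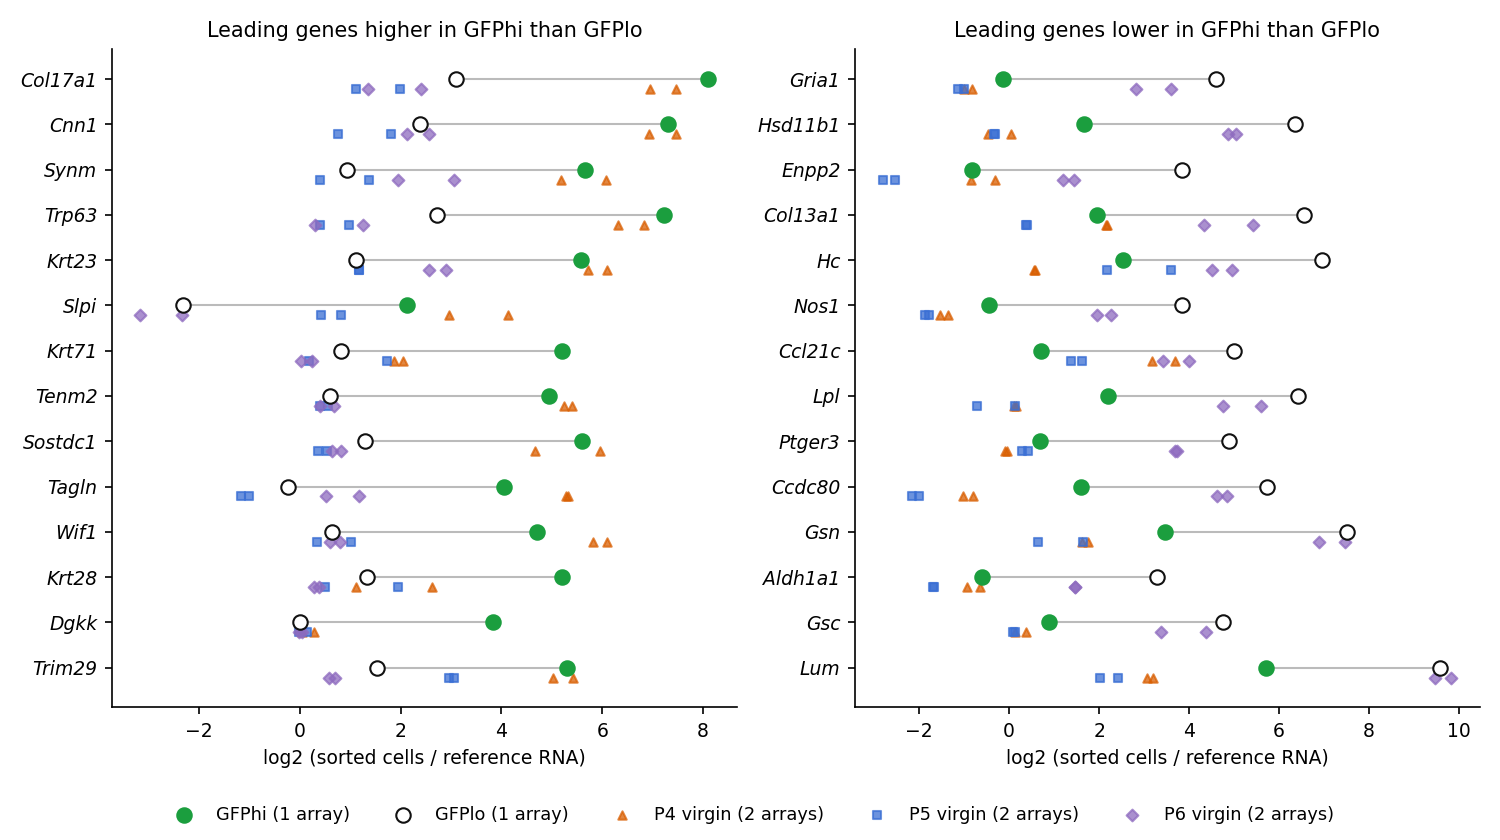
Levels of 14 of the 15 genes with the largest positive (left) and 14 of the 15 with the most negative (right) GFPhi minus GFPlo difference, among genes with a RefSeq symbol, no outlier spot and the same call with the scanner's ratio. The x axis is log2 of sorted cells over reference RNA; filled circles are GFPhi, open circles GFPlo (1 array each, joined by a line), and the smaller symbols are the 2 virgin arrays each of P4, P5 and P6. Most filled circles on the left lie near P4 and most open circles on the right near or above P6; Krt71, Krt28 and Dgkk lie in GFPhi well above every wild-type array.

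Of 20619 genes measured on at least 1 of the GFP arrays (well above background in Cy5), 205 were higher in GFPhi by 4-fold or more (0.994%) and 208 were lower (1.01%). At 2-fold the counts were 807 (3.91%) and 714 (3.46%). The median difference over all measured genes was 0.01. The spread of the difference had an SD of 0.60. Between the 2 arrays of a virgin wild-type population the same SD was 0.34 in P4, 0.40 in P5 and 0.48 in P6. Between the 2 arrays of a pregnant population it was 0.58 in P4, 0.52 in P5 and 0.64 in P6, the last above that of the GFP difference. In the virgin populations 0.107%, 0.121% and 0.32% of genes lay 4-fold apart. In the pregnant populations 0.563% to 1.4% of genes did, where GFPhi and GFPlo lay 4-fold apart at 2% of genes. The 2 arrays of each wild-type population lay on different slides and in different scans, while the GFP arrays shared both. These spreads are therefore not like for like. For 396 of the 413 genes past 4-fold, the GFP difference was larger than that gene's gap between replicates in every wild-type population. That is 96.6% of those with a value for every gap. Gaps of 4-fold were rare and these genes were picked past 4-fold, so the selection itself largely sets this share.

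Among genes with a RefSeq symbol, no outlier spot and the same 4-fold call with the scanner's ratio, after Col17a1 and Cnn1 came Synm (4.72), which encodes the intermediate filament protein synemin, and Trp63 (4.50), the transcription factor that specifies basal epithelium. Averaged with its further probes, which were not well above background on either GFP array, Trp63 differed by 1.59. Next were Krt23 (4.46), the protease inhibitor Slpi (4.44), Krt71 (4.37), the adhesion molecule Tenm2 (4.35) and Sostdc1 (4.32), a secreted antagonist of BMP and Wnt signals. Tagln (4.29), a smooth muscle actin-binding protein, Wif1 (4.06), a secreted Wnt inhibitor, Krt28 (3.86), Dgkk and Trim29 (3.78) followed. Trp63 read 7.22 in GFPhi and 2.73 in GFPlo, beside 6.31 and 6.82 in P4 and 1.25 and 0.30 in P6. Synm had 1 further probe, which differed by 1.54.

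The genes lower in GFPhi began with Gria1, Hsd11b1 and Enpp2. Next, Col13a1, a transmembrane collagen, was at 1.96 in GFPhi and 6.54 in GFPlo (-4.58), and its second probe differed by only -0.36. Hc, which encodes complement component C5, differed by -4.42, Nos1, a nitric oxide synthase, by -4.30 and the chemokine gene Ccl21c by -4.28. Ccl21c has near-identical copies in the genome, so which copy was read is uncertain. Lpl, the lipase that takes up fatty acids from lipoproteins, was at 2.20 in GFPhi and 6.42 in GFPlo (-4.22), with a second probe at -3.57. Ptger3, a prostaglandin receptor, Ccdc80, a matrix protein, Gsn, which encodes the actin-severing gelsolin, Aldh1a1, an enzyme of retinoic acid synthesis, and Gsc, a homeobox factor, lay between -3.87 and -4.19, although the second Ptger3 probe differed by only -0.68. Over all called genes, 146 had further probes, 209 in number, of which 26 (12.4%) had the opposite sign and 89 passed 2-fold the same way. Lum, a proteoglycan of collagen fibres, was at 5.70 in GFPhi and 9.57 in GFPlo (-3.87), with P4 at 3.21 and 3.07 and P6 at 9.83 and 9.47.

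The wild-type arrays share no sample with the GFP arrays, so their replicated tests (limma across all genes, Benjamini-Hochberg adjusted p under 0.05) can be read beside the GFP values. Of the 205 genes higher in GFPhi, 168 (82%) were called higher in virgin P4 than in P6 and 0 lower, where 5.62% of the measured genes (4.9% of all tested) were called higher. Of the 208 genes lower in GFPhi, 192 (92.3%) were called lower in P4 than in P6 and 0 higher, where 6.14% of the measured genes (5.49% of all tested) were called lower. Trp63 differed by 5.79 between P4 and P6 (SE 0.39, limma adjusted p = 5.3e-05), Col17a1 by 5.32 (SE 0.51, limma adjusted p = 2.89e-04), Gria1 by -4.13 (SE 0.29, limma adjusted p = 6.6e-05) and Lum by -6.51 (SE 0.79, limma adjusted p = 1.04e-03). Against P5 the match was weaker on the lower side. Of the 205 genes higher in GFPhi, 144 (70.2%) were called higher in P4 than in P5 and 5 lower, against 7.53% and 5.31% of measured genes (6.56% and 4.78% of all tested). Of the 208 lower, 8 (3.85%) were called lower in P4 than in P5 and 67 (32.2%) higher. P5 and P6 differed at 202 (97.1%) of these 208, all lower in P5, where 9.9% of measured genes (8.8% of all tested) were. Of the 205 genes higher in GFPhi, 60 were called higher in P5 than in P6 and 26 lower, where 8.16% of measured genes (7.29% of all tested) were called higher. With the replicate number as a block, which the array deviations bear out, the 67 became 104, and it was 20 with median centring and 30 to 66 without 1 wild-type array. Under that block the called genes of P4 minus P5 numbered 5745 in place of 2688, those of P4 minus P6 5152 in place of 2465, and those of P5 minus P6 6854 in place of 3818.

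Over genes, the GFP difference ran with P4 minus P6 (Pearson r 0.74 over 20554 genes, 0.67 and 0.75 with each replicate pair), less with P5 minus P6 (0.49) and little with P4 minus P5 (0.13). By rank the correlations were lower, with a Spearman rho of 0.54, 0.36 and 0.03 in the same order. These are descriptions across genes, which are not independent, and replicate 1 of the virgin groups shared its scan with the GFP arrays. Between arrays, GFPhi correlated at 0.88 and 0.86 with the virgin P4 arrays and at 0.85 with GFPlo, and GFPlo at 0.89 and 0.81 with the virgin P6 arrays.

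**Figure D2:**
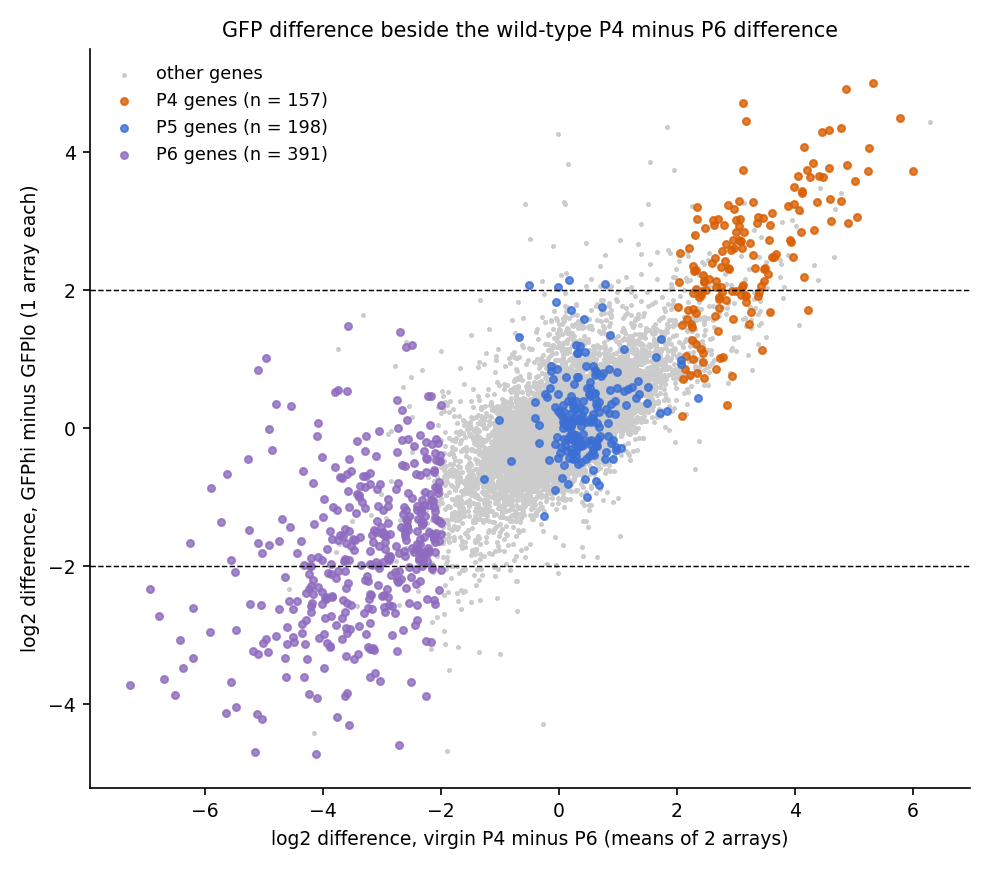
Each point is 1 gene; the y axis is the GFPhi minus GFPlo log2 difference (1 array each), the x axis the log2 difference of virgin P4 minus P6 (means of 2 arrays), and dashed lines mark 4-fold. P4 genes (157, orange) lie in the upper right, P6 genes (391, purple) mostly in the lower left, and P5 genes (198, blue) around 0 on both axes.

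Genes were then grouped by the wild-type population in which they were called 4-fold or more above both others. The 157 P4 genes had a median level of 2.77 in GFPhi and 0.24 in GFPlo, against 3.19 and 3.32 in P4. Of them 106 (67.5%) were higher in GFPhi by 4-fold or more and 0 were lower, with a median difference of 2.47. The 391 P6 genes had a median of 0.60 in GFPhi and 2.37 in GFPlo, against 3.09 and 2.93 in P6 and -0.07 and -0.13 in P4. Of these 158 (40.4%) were lower in GFPhi by 4-fold or more and 0 were higher, with a median difference of -1.78. GFPlo thus lay below P6 for its genes, and GFPhi above P4. The P4, P5 and P6 genes were picked on these same wild-type arrays, which by itself pushes the wild-type medians apart. A GFP median between or below them can therefore not be read as a trait of the GFP cells. The 198 P5 genes behaved otherwise. Their median was 1.48 in GFPhi and 1.12 in GFPlo, above both arrays of P4 (0.88 and 0.54) and of P6 (0.41 and 0.16) but well below P5 (3.44 and 3.30). Only 4 of them (2.02%) were higher in GFPhi by 4-fold or more and 0 were lower, with a median difference of 0.13. In bulk RNA, fewer cells of a type and less RNA per cell cannot be told apart.

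**Figure D3:**
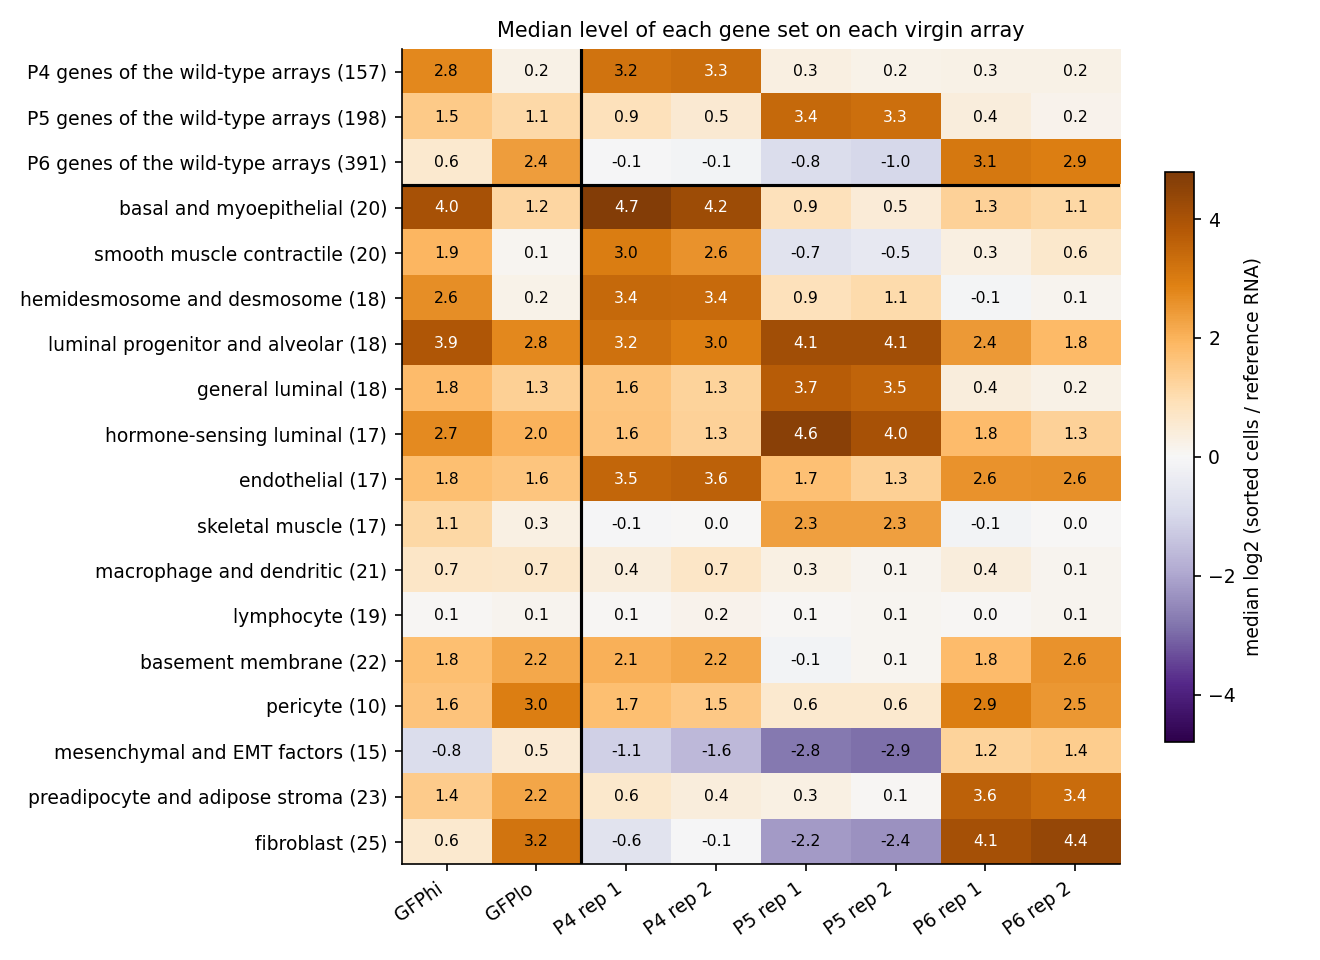
Median log2 level over reference RNA of each gene set (rows, with the number of genes) on each virgin array (columns). The line splits the GFP arrays from the wild-type ones and the gene sets of the wild-type arrays from the marker lists. P4 genes read 2.8 in GFPhi and 0.2 in GFPlo, fibroblast genes 0.6 in GFPhi and 3.2 in GFPlo, and P5 genes 1.5 in GFPhi and 1.1 in GFPlo.

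Of 20 basal and myoepithelial markers, all of them measured and 19 well above background in GFPlo, 14 were higher in GFPhi by 4-fold or more and 0 lower, with a median difference of 2.99 (median over all measured genes 0.01). The keratins of the layer were among them. Krt14 was at 5.06 in GFPhi and 2.34 in GFPlo, Krt5 at 5.91 in GFPhi and 3.07 in GFPlo, and Krt17 at 5.99 in GFPhi and 2.97 in GFPlo. The integrin subunit Itga6 (3.06), the Notch ligand gene Jag2 (3.64) and the cadherin Cdh3 (2.29) were higher too. Itgb4, the integrin partner of Itga6, differed by 1.89 and the oxytocin receptor Oxtr by 1.93. The exceptions were Snai2 (0.59) and Vim, the filament protein vimentin, which differed by -1.78. Snai2 read 2.17 in GFPhi and 1.58 in GFPlo, beside 0.92 and 1.32 in P4 and 1.36 and 0.96 in P6, and Vim was also lower in P4 (-1.69 and -1.91) than in P6 (0.56 and 1.11).

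The contractile list shares 8 of its 20 genes with the basal list. Both lists hold Cnn1, and the basal and hemidesmosome lists hold Col17a1. These are marker genes given for this comparison, so the counts of these lists are not independent of that choice. Of 20 measured smooth muscle genes, 8 were higher by 4-fold or more and 0 lower, with a median of 1.83. Acta2, the smooth muscle actin, was at 3.44 in GFPhi and -0.63 in GFPlo (4.07). Tpm2, a tropomyosin, differed by 3.50, Myh11, the smooth muscle myosin heavy chain, by 3.22, Lmod1 by 3.04, the myosin kinase Mylk by 3.02 and the myosin light chain Myl9 by 2.96. GFPhi was below both P4 arrays for Acta2 (4.41 and 4.11), Tpm2 (4.36 and 4.15) and Myl9 (4.79 and 4.46). Srf, which encodes the serum response factor of this programme, differed by 0.50. That factor binds the CArG box, and 1.63% of all 32851 promoter windows of 300 bases in the RefSeq table (GRCm38.p6) held one on either strand, since the motif reads the same on both. Only the exact form CCWWWWWWGG, with W for A or T, was counted. Near matches, such as ccctatatgg in the Acta2 window, were not, so a window without a count may still hold one. Among the contractile genes, 3 of 16 with a window held the exact form, namely Myl9, Vcl and Srf. The Myl9 window is printed because it was the one of these 3 whose gene passed 4-fold, with the box in capitals, starting 161 bases before the gene's start.
Myl9, chr2:156775214-156775513, plus strand: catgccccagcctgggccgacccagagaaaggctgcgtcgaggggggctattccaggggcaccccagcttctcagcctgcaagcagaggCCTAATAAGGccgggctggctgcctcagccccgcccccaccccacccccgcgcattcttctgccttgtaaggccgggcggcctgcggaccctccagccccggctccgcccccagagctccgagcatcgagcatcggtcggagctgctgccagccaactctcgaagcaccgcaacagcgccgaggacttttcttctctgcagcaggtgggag

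Of 18 measured genes of hemidesmosomes and desmosomes, which anchor cells to the basement membrane and to each other, 7 were higher by 4-fold or more and 0 lower, with a median of 1.74. Beside Col17a1 and Itga6 these were Perp (3.43 in GFPhi, -0.30 in GFPlo), the plakophilins Pkp1 (3.42) and Pkp3 (2.37), and the laminin chains Lamb3 (2.98) and Lama3 (2.61). The desmosomal Dsp (1.84) and Dsg2 (1.64) stayed under 4-fold.

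The basement membrane list split by chain. Of 22 measured genes, 5 were higher and 4 lower by 4-fold or more, with a median of -0.43. The higher ones were the collagen IV chains Col4a6 (5.30 in GFPhi, 1.98 in GFPlo) and Col4a5 (1.86 in GFPhi, -0.69 in GFPlo), and the laminin chains Lamb3, Lama3 and Lama1 (2.41 in GFPhi, 0.22 in GFPlo, where it was not well above background, so that it was at least 4.41-fold higher). The further probes of Col4a6 differed by 0.22 and 1.00 and that of Lama3 by -0.08. The lower ones were the laminin chains Lama2 (1.76 in GFPhi, 5.91 in GFPlo) and Lama4 (1.64 in GFPhi, 3.97 in GFPlo) and the nidogens Nid1 (2.41 in GFPhi, 4.96 in GFPlo) and Nid2 (-1.61 in GFPhi, 1.06 in GFPlo). The widespread collagen IV chains Col4a1 and Col4a2 leaned to GFPlo by -1.19 and -0.85. Lama2 in P4 was at 0.13 and 0.35 and in P6 at 5.03 and 5.70. Col4a6 in P4 was at 4.84 and 4.60 and in P6 at 0.45 and -0.20.

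**Figure D4:**
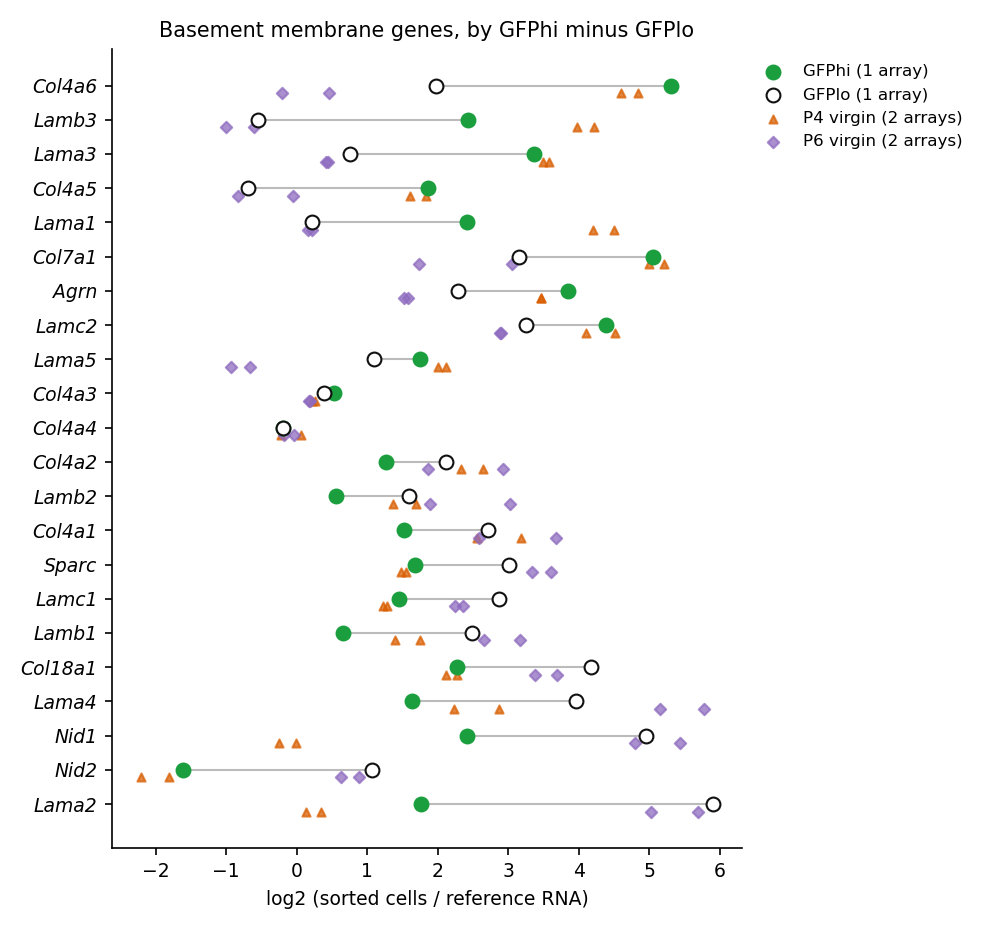
The 22 measured basement membrane genes, ordered by GFPhi minus GFPlo. The x axis is log2 of sorted cells over reference RNA; filled circles are GFPhi, open circles GFPlo, triangles the 2 virgin P4 arrays and diamonds the 2 virgin P6 arrays. Col4a6, Lamb3, Lama3, Col4a5 and Lama1 lie to the right in GFPhi, and Lama2, Nid2, Nid1 and Lama4 to the right in GFPlo.

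Fibroblast genes went the other way as a group. Of 25 markers, all measured, 0 were higher and 17 lower in GFPhi by 4-fold or more, with a median difference of -2.53. The fibrillar collagens Col1a1 (0.57 in GFPhi, 4.21 in GFPlo) and Col3a1 (1.24 in GFPhi, 4.96 in GFPlo), the proteoglycan gene Dcn (3.55 in GFPhi, 7.02 in GFPlo) and Pdgfra, the receptor that marks fibroblasts (-0.53 in GFPhi, 3.15 in GFPlo), were among them. GFPhi was not as low as P4 for these. Col1a1 read -2.37 and -2.28 in P4 and 4.06 and 4.69 in P6, and Col3a1 -1.32 and -1.50 in P4 and 6.04 and 5.67 in P6. The list's median level was 0.6 in GFPhi and 3.2 in GFPlo, between the wild-type values of P4 (-0.6 and -0.1) and P6 (4.1 and 4.4). The transcription factor genes Zeb1 (-2.42), Twist2 (-2.44), Twist1 (-2.62) and Zeb2 (-2.84), which drive mesenchymal programmes, were the 4 of 15 mesenchymal factors past 4-fold, all lower in GFPhi. The pericyte and fibroblast receptor Pdgfrb differed by -2.97 and was the 1 of 10 pericyte genes past 4-fold, while Rgs5, a pericyte marker, differed by -0.41.

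Of 23 measured genes of preadipocytes and adipose stroma, 6 were lower and 0 higher by 4-fold or more, with a median of -0.69. They were Hsd11b1, Enpp2, Lpl, the eotaxin gene Ccl11 (3.34 in GFPhi, 6.50 in GFPlo; -0.98 with the scanner's ratio), the growth factor gene Gdf10 (-2.98) and Wnt2 (-2.09). Hsd11b1 and Enpp2 were among the marker genes given for this comparison, so the count is not independent of that choice. The adipogenic regulator Pparg differed by -1.52. Mature adipocyte genes did not follow: of 15 measured, 1 was higher, the glucose transporter gene Slc2a4 (5.58 in GFPhi, 3.10 in GFPlo), and 0 lower. Slc2a4 read 5.57 and 5.78 in P4 and 2.98 and 3.10 in P6.

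**Figure D5:**
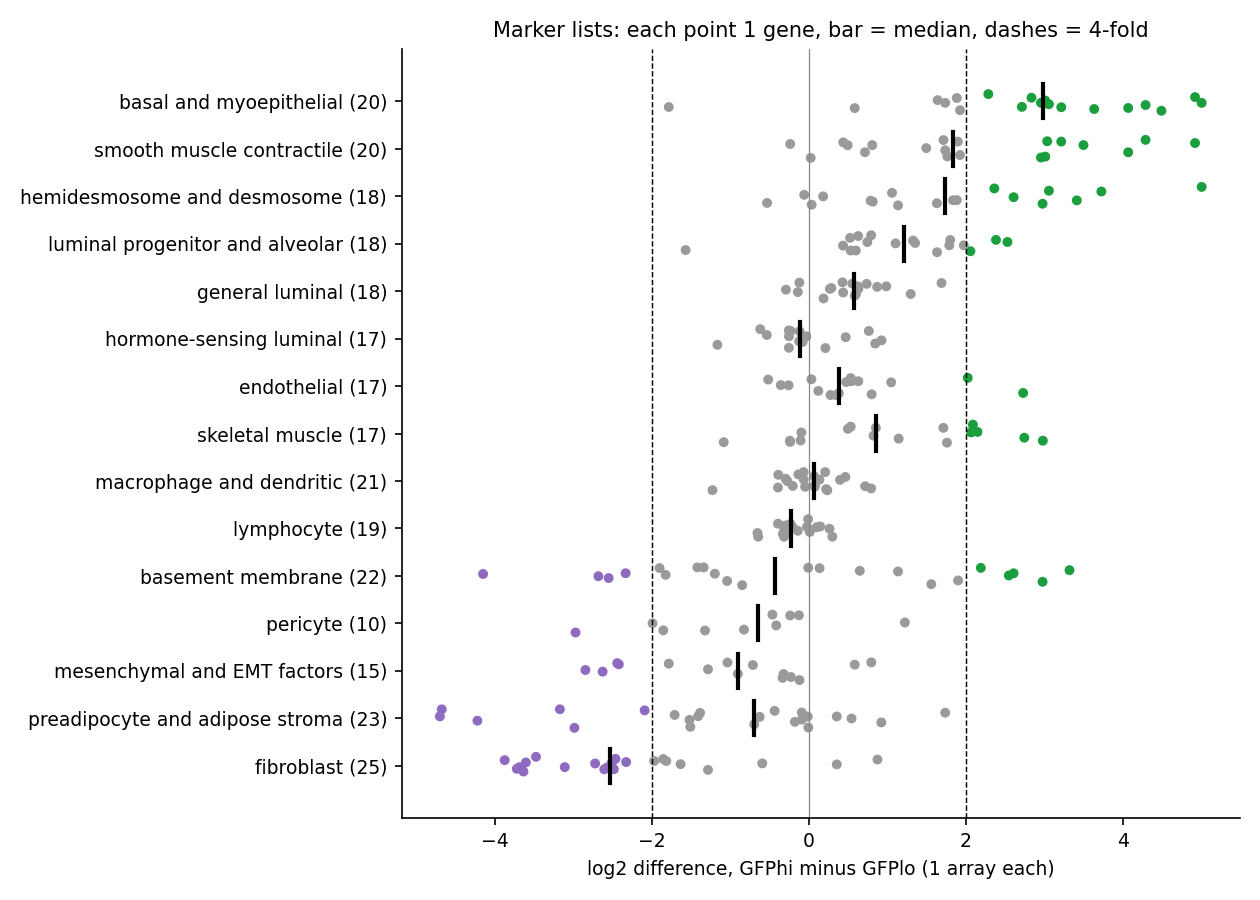
GFPhi minus GFPlo log2 difference (x axis, 1 array each) of every measured gene of 15 marker lists. Each point is 1 gene, green past 4-fold higher in GFPhi, purple past 4-fold lower, grey between; the bar is the list's median and the dashes mark 4-fold. The medians run from 2.99 for basal and myoepithelial genes to -2.53 for fibroblast genes, with the basement membrane list spread to both sides.

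The luminal lists lay between. Of 18 general luminal genes none was past 4-fold in either direction, where 2% of all measured genes were, and their median was 0.57. Krt18 was at 2.10 in GFPhi and 1.49 in GFPlo, against 4.52 and 3.92 in P5, Krt8 at 1.03 in GFPhi and 0.58 in GFPlo, and Krt7 at 2.69 in GFPhi and 2.81 in GFPlo. None of 17 hormone-sensing genes was past 4-fold either, with a median of -0.11. The estrogen receptor gene Esr1 was at 2.84 in GFPhi and 1.99 in GFPlo, its cofactor Foxa1 at 2.35 in GFPhi and 2.88 in GFPlo, and the prolactin receptor gene Prlr at 5.20 in GFPhi and 5.45 in GFPlo. Of 18 luminal progenitor and alveolar genes 3 were higher by 4-fold or more and 0 lower, with a median of 1.22. These were the milk casein gene Csn2 (7.63 in GFPhi, 5.10 in GFPlo), which differed by only 0.74 with the scanner's own ratio, Sox10 (4.05 in GFPhi, 1.67 in GFPlo) and Lcn2 (4.51 in GFPhi, 2.45 in GFPlo). Sox10 in P4 was at 3.23 and 3.08 and in P5 at 2.57 and 2.88, and its other probe differed by 0.31. Elf5, the alveolar regulator, differed by 1.36, Kit by 0.75 and Rspo1, a Wnt amplifier, by -1.57.

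Of 14 measured surface genes 1 was higher (Itga6) and 1 lower by 4-fold or more, Thy1, a fibroblast surface protein at -0.38 in GFPhi and 2.15 in GFPlo. Over all measured genes 0.994% were higher and 1.01% lower by 4-fold or more. Counts as small as those of the surface and stem-cell-associated lists are not read as a trait of the list. Cd24a, which encodes CD24, differed by 0.63 and Itgb1, which encodes CD29, by 0.01. Of 19 stem-cell-associated genes 2 were higher, the Notch ligand Dll1 (5.82 in GFPhi, 2.18 in GFPlo) and the R-spondin receptor Lgr5 (4.34 in GFPhi, 2.01 in GFPlo), and 2 were lower, Zeb1 and Axin2 (1.57 in GFPhi, 4.06 in GFPlo). Dll1 in P4 was at 5.32 and 5.05 and in P6 at 0.95 and 0.48. Lgr5 in P4 was at 4.45 and 4.34 and in P6 at 1.09 and 1.05, and its GFP difference of 2.33 shrank to 1.37 with the scanner's ratio.

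In the Wnt pathway 3 of 32 measured genes were higher (Sostdc1, Wif1, Lgr5) and 4 lower, with a median of -0.22. Those lower in GFPhi were the ligand Wnt2 (4.84 in GFPhi, 6.93 in GFPlo), the receptor Fzd1 (1.64 in GFPhi, 3.80 in GFPlo), the secreted antagonist Sfrp2 (1.55 in GFPhi, 3.85 in GFPlo) and the feedback target Axin2. The ligand gene Wnt10a differed by 1.92. In the Notch pathway the ligands Dll1 and Jag2 (4.28 in GFPhi, 0.64 in GFPlo) were higher and the target gene Heyl (1.63 in GFPhi, 4.12 in GFPlo) lower, of 21 genes. Among 26 growth factors and antagonists, Sostdc1, Wif1 and Pdgfa (1.12 in GFPhi, -1.20 in GFPlo) were higher, and Fgf10 (not well above background in GFPhi and at least 4.81-fold lower there), Igf1 (-2.74), Gdf10 and the BMP modulator Bmper (-3.23) lower. Pdgfa is a ligand of the receptor Pdgfra, which had the opposite sign. Among 11 measured genes of complement and acute phase, C1ra (1.92 in GFPhi, 4.77 in GFPlo) and Serping1 (-2.05, but -0.84 with the scanner's ratio) were lower in GFPhi and Lcn2 was higher. In retinoid and steroid metabolism 4 of 16 were lower, Hsd11b1, Aldh1a1, Rarres2 (3.24 in GFPhi, 6.11 in GFPlo) and Rbp4 (0.93 in GFPhi, 3.31 in GFPlo), and 0 higher. Beside the counts of these lists, 0.994% of all measured genes were higher and 1.01% lower by 4-fold or more. The lists are short, and their counts were not tested.

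None of 21 macrophage and dendritic, 19 lymphocyte, 10 mast cell and granulocyte or 6 erythroid genes was past 4-fold, and their medians lay between -0.23 and 0.07. Over all measured genes 2% were past 4-fold, so a count of 0 in lists this short is near that share. Ptprc, the leukocyte common antigen CD45, was at -2.09 in GFPhi and -1.70 in GFPlo, above all virgin P4, P5 and P6 arrays (-4.30 to -2.84). Of 17 endothelial genes 2 were higher, Ptprb (4.97 in GFPhi, 2.24 in GFPlo) and Kdr (3.33 in GFPhi, 1.30 in GFPlo), with a median of 0.39, and the defining Cdh5 read 3.43 in GFPhi and 3.04 in GFPlo. The endothelial median level was 1.8 in GFPhi and 1.6 in GFPlo, below both P4 arrays (3.5 and 3.6). No cell cycle gene of 24 was past 4-fold or past 2-fold, with differences from 0.12 to 0.63. Early response and heat shock genes, which can be induced while tissue is dissociated, had a median of -1.07 over 18 genes, with Dusp1 (3.03 in GFPhi, 5.37 in GFPlo) and Hspa1a (5.85 in GFPhi, 7.99 in GFPlo) past 4-fold and Fos at 5.86 in GFPhi and 7.37 in GFPlo. Dusp1 in P4 was at 3.38 and 2.82 and in P6 at 5.33 and 4.95. Their part in the other differences was not tested. The endogenous beta-actin gene Actb was at -0.60 in GFPhi and -1.36 in GFPlo (0.76).

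Of 17 measured skeletal muscle genes, 5 were higher by 4-fold or more and 0 lower, with a median of 0.86. The skeletal muscle actin gene Acta1 was at 2.43 in GFPhi and -0.56 in GFPlo and was also high in P4 (3.43 and 3.68). The others, Myh1, Tnnc2, Tnni2 and Myl1, were low in virgin P4 and high in virgin P5. With median centring the GFP differences of Tnni2 (1.94) and Myl1 (1.92) fell under 4-fold. On the pregnant arrays Tnni2 (3.79 and 4.31 in P4, 1.01 and 0.265 in P5) and Myh1 (1.07 and 2.45 in P4, 0.33 and -0.52 in P5) were higher in P4. Tnnc2 (-0.63 and -0.64 in P4, 1.12 and 0.09 in P5) and Myl1 (-1.14 and -2.26 in P4, 0.12 and -1.90 in P5) were not. Myh1 was not well above background in GFPlo and was at least 6.01-fold higher in GFPhi, while its other probe differed by -0.34. Tnnc2, the calcium-binding troponin, was at 3.65 in GFPhi and 1.50 in GFPlo, beside -0.27 and -0.10 in virgin P4, 4.41 and 3.84 in virgin P5 and -0.30 and -0.40 in virgin P6.

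Some GFP values lay outside the wild-type range. The counts that follow are of genes picked as high on the GFP array in question. No share over all measured genes was computed to set beside them. Among called genes with a RefSeq symbol, 50 of 189 higher in GFPhi were above every wild-type array in GFPhi, 7 of them by 2-fold or more, and 66 of 200 lower in GFPhi were above every wild-type array in GFPlo, 10 of them by 2-fold or more. On the GFPhi side these were led by Dgkk, a diacylglycerol kinase gene not well above background in GFPlo, which read 3.84 in GFPhi and 0.01 in GFPlo, and by the sulfate transporter gene Slc13a1, at least 8.07-fold higher and well above background on the GFPhi array alone of all 14. Both had 1 probe. Then came keratins. Krt71 read 5.20 in GFPhi and 0.83 in GFPlo with a highest wild-type value of 2.06, Krt28 5.20 in GFPhi and 1.33 in GFPlo with a highest of 2.62, and Krt75 3.40 in GFPhi and 0.71 in GFPlo with a highest of 1.02. These 3 are keratins of the hair follicle's inner sheath and companion layer. Other hair follicle genes followed only in part. Krt25 (2.13) and Krt27 (1.59) were higher in GFPhi and not well above background in GFPlo. Krt35 (0.87) and Tchh (0.56) differed by less. Krt31, Krt32, Krt34, Krt36, Krt85, Krt86 and Dsg4 lay between -0.16 and 0.24, and Krt26 was not well above background on either GFP array. The odorant receptor gene Olfr1367 read 2.03 in GFPhi and -0.19 in GFPlo, where it was not well above background, and its difference of 2.22 became 1.42 with median centring. Krt17 and Krt5 exceeded the highest wild-type array by less, at 5.99 against 4.92 and at 5.91 against 4.94. On the GFPlo side Enpp2 (3.84, highest wild-type value 1.99), Hc (6.95, 5.17), the TNF receptor Tnfrsf19 (3.90, 2.28), Aspg (3.79, 2.36) and Axin2 (4.06, 2.73) led, followed by Prr16, the matrix protein gene Thbs4 and Scube1. Further probes went less far or the other way for Aspg (0.17) and Scube1 (-0.15 and 0.03). The Thbs4 difference of -3.13 became -1.89 with the scanner's ratio, and its other probe differed by -2.98.

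The Cy3 channel held the same reference RNA on both arrays, and its raw signal differed by -0.09 to 0.25 (5th to 95th percentile, log2) over the measured genes. At 15 of the 413 called genes it was nonetheless 2-fold or more apart, of 32 such genes in all. For Krt5 the raw Cy5 signal was 31070 in GFPhi and 940 in GFPlo, 33.1-fold, while the raw Cy3 signal was 1372 in GFPhi and 255 in GFPlo, 5.38-fold. Krt17 and Krt14 had Cy3 signals 4.31-fold and 3.75-fold apart in the same direction, and Col17a1 2.60-fold. The log ratio of these genes is therefore smaller than their Cy5 difference, which for Krt5 was 5.07 on normalized Cy5 alone in place of 2.84. Gsn was the reverse case, with Cy5 lower in GFPhi by 3.48-fold and Cy3 higher by 4.60-fold, so that its difference of -4.03 became -2.02 on normalized Cy5 alone. Counted on Cy5 alone, 197 genes were higher and 206 lower by 4-fold or more, and 187 and 194 of these were among the 205 and 208.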

How the data were processed

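Each array compared sorted mammary cells (Cy5) with universal reference RNA (Cy3), as the labels' protocols state. The deposited scanner files hold spot and background intensities, background flags and a log10 ratio of Cy5 over Cy3, made with Agilent Feature Extraction 9.5.3.1 per the submitters' processing notes. The deposited series table holds log2 ratios whose slope against the scanner ratio was 1 per array; its processing is not given in the sources used here. Flags of the deposited files (0 or 1, other values) marked probes well above background.

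Intensities were corrected with normexp (offset 50), local-background outliers being replaced by the array's median, and normalized by loess within arrays with control spots at weight 0 (R 4.3.3, limma 3.58.1). Outlier spots were dropped, spots of a probe averaged, and the brightest of a gene's probes represented it. Of 41174 probes, 22951 were named by accession, 6659 by symbol, 3109 by synonym and 8455 kept the file's name. A gene entered when some group had it well above background (Cy5) on all of its arrays. GFPhi and GFPlo have 1 array each, so no test was made and 4-fold with the brighter array above background was the call. Where the dimmer array was not well above background, the fold is a bound on normalized Cy5, against the higher of the probe's own signal and the lowest signal well above background on that array. Wild-type groups (2 arrays each) were tested with limma and Benjamini-Hochberg adjustment, without a block; nothing says that replicates were separate animals, so p-values measure the spread between these arrays, and the number of arrays limits the precision. Replicate numbers paired the virgin arrays (correlation of deviations from group means 0.299 to 0.692), which shared a scan by number. The members and gene lists were chosen with earlier results of these data known. Named genes were the 15 highest and 15 lowest with a RefSeq symbol, no outlier spot on the GFP arrays and the same 4-fold call with the scanner ratio, the 5 markers, the list members past 4-fold (or the 4 brightest where none was), and up to 8 each way for genes opposite to a called 4-fold wild-type difference and genes above every wild-type array. Other members, keratins, promoters and the Cy3 comparison were described after their values were seen. Values of 2 genes that met these rules are not reported here. The fitting code was tested on simulated data.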

Additional observations from a re-analysis of the deposited data

Results flagged for a closer look

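For these genes the GFPhi minus GFPlo difference passed 4-fold and the replicated wild-type contrast of virgin P4 minus P5 was called by limma, 4-fold or more, in the opposite direction. The difference between the GFP and wild-type contrasts was not tested. Among the genes higher in GFPhi, 5 were lower in P4 than in P5 by this measure. They were Myh1 (2.75), Tnnc2 (2.15), Tnni2 (2.09), Myl1 (2.07) and Apobec2 (2.04), all genes of skeletal muscle. With median centring these GFP differences were 2.03, 2.01, 1.94, 1.92 and 1.48 in the same order. Tnni2, Myl1 and Apobec2 thus fell under 4-fold. Among the genes lower in GFPhi, 26 were higher in P4 than in P5, and the 8 with the largest GFP differences were Enpp2 (-4.67), Itm2a (-3.85), Rhoj (-3.09), Serpinf1 (-3.02), Htra1 (-2.99), Pdgfrb (-2.97), Fibin (-2.92) and Larp6 (-2.59). The other probe of Rhoj differed by only -0.62 and that of Serpinf1 by -2.10. The wild-type call of Enpp2, Rhoj, Pdgfrb and Itm2a was lost with median centring, and that of Myh1 and Apobec2 with the scanner's ratio, where their P4 minus P5 differences were -2.78 and -2.78, against -2.02 and -2.75 after normexp and loess. Against P4 minus P6, 0 of the 413 genes were called in the opposite direction.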

How the results depend on the processing

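The counts past 4-fold, 205 higher and 208 lower in GFPhi, depended on the ratio used. The scanner's own ratio gave 488 and 457, the series-wide log2 values as deposited gave 487 and 457, and a 2-fold threshold 807 and 714. Median centring gave 127 higher and 182 lower, or 41.1% of calls higher in place of 49.6%. Other alternatives (normexp offset 16, background as given, both arrays or the Cy3 channel above background, no filter, the mean over probes and, chosen after seeing the data, Cy5 alone) stayed within 1.5 times. The macrophage and dendritic list's median difference of 0.07 became -0.03 with median centring and -0.01 with the mean over probes, and no other recomputed value changed sign. The cause was not tested. For the wild-type contrasts virgin P4 minus P5, virgin P4 minus P6 and virgin P5 minus P6, the main totals of called genes were 2688, 2465 and 3818. Median centring gave 1307, 1049 and 2161. The slide as a block gave 5510, 4976 and 6593, the scan as a block 5745, 5154 and 6853, and the replicate number as a block 5745, 5152 and 6854. Leaving out 1 array gave 1303 to 1539, 1328 to 1677 and 2493 to 2976, with fewer arrays in the fit. The GFP difference has no replicate, so its values carry no error, and 14 of the 413 called genes were not well above background on the dimmer array.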
